A study of Mus musculus with 6 samples.

Results

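Tubulins are the proteins that microtubules are built from, and 10 of the 18112 rows of the expression table are described here: the alpha tubulin genes Tuba1a, Tuba1b and Tuba1c, the beta tubulin genes Tubb2a, Tubb2b, Tubb3, Tubb4b, Tubb5 and Tubb6, and BGI_novel_G000641, a row without a gene symbol that the table assigns to tubulin alpha. The 9 symbol-named rows were chosen by name. BGI_novel_G000641 was chosen for its higher values in the knockout columns, so its values are a description and were not tested.

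The RNA came from primary aortic vascular smooth muscle cells (VSMCs) of C57BL/6 mice, in 3 Smyd2 fl/fl and 3 Smyd2 SMC-/- libraries. Smyd2 encodes a lysine methyltransferase, and the study asked how its loss in VSMCs alters gene expression. The Smyd2 fl/fl libraries, called controls, come, by the methods, from littermates with the floxed allele and no Cre. Smyd2 SMC-/- cells, called knockouts, carry the same floxed allele and a Cre transgene driven by the promoter of Tagln (SM22α), a gene of smooth muscle that is also active in other mesenchymal cells. The mice were young adults according to the study's methods. The labels give cells at passage 6 in medium with 10% FBS, while the methods give an earlier passage, overnight starvation and another extraction of RNA. The study states in general that its data come from 3 or more independent experiments and gives n = 3 per group for this assay. Whether the 3 libraries of a group came from separate animals or cultures is not stated for them, so p-values measure only the spread between these libraries, which may be technical.

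Alpha and beta tubulin form a dimer that adds to and leaves the ends of microtubules, which carry vesicles, position organelles and separate chromosomes. Vertebrate genomes hold several genes, called isotypes, for each class, and their proteins are nearly alike apart from the C-terminal tail, where enzymes add and remove glutamate and other groups. In smooth muscle, microtubules act on cell shape, migration and the force of contraction. Cells also adjust the amount of tubulin mRNA to the amount of unpolymerised dimer.

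Expression was given as FPKM, the fragments of a gene per kilobase of transcript and scaled to the mapped fragments of the library, which allows levels of different genes to be compared per length. Low FPKM values step by whole fragments, which placed the libraries between 16050000 and 18550000 mapped fragments. This depth is approximate. It was chosen where most low values came within 0.15 of a whole fragment, which 65.3% to 71.9% of them did. By chance 30% would do so at a depth fixed beforehand, and more at a depth chosen in this way. Over 36 settings the estimate ran from 15700000 to 24850000 and the percentage from 53.7% to 78.0%, so the setting used was not the closest. The replicate 1 libraries stood apart from the others: on the first principal component, which held 50.2% of the variance, the scores placed the Smyd2 fl/fl replicate 1 library at -58.6 and the Smyd2 SMC-/- replicate 1 library at -25.4, with the other libraries between 2.75 and 39.1. The second, with 33.1%, separated the genotypes. On the first, each knockout library also scored above the control library of the same number. Control and knockout scored 3.11 and 39.1 for replicate 2 and 2.75 and 39.1 for replicate 3. The first component thus mixed replicate 1 and genotype.

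Differences were tested with limma on log2(FPKM + 1) over the 12565 genes that averaged 0.5 FPKM or more, p-values were adjusted over all of them by Benjamini and Hochberg, and a gene was called at an adjusted p under 0.05. All 10 tubulin rows passed this filter, BGI_novel_G000641 through its Smyd2 SMC-/- libraries alone. Fold changes on this scale understate changes of low genes.

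Smyd2 itself, at chr1:189880492-189922363 of GRCm38, measured 7.87, 3.1 and 3.0 FPKM in control replicates 1, 2 and 3 and 1.67, 0.40 and 0.80 FPKM in the knockout replicates. Every knockout library lay below every control library. The log2 fold change was -1.48 (SE 0.39, n = 3 per group), with a limma adjusted p of 0.105, and of 0.0189 when the replicate number was a block (range over the alternatives 0.00126 to 0.308). FPKM counts the whole transcript, so RNA that lacks only the floxed part would still be measured.

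The smooth muscle identity of the libraries was checked with 8 marker genes. Their summed level was 924, 823 and 816 FPKM in the controls and 264, 430 and 377 FPKM in the knockouts. Acta2, smooth muscle actin, was the most abundant and made up most of that sum. Its log2 fold change was -1.55, with a limma adjusted p of 0.00803, and it was the 1 marker of this list called, which it was not without control replicate 2 or 3 or knockout replicate 3 (limma adjusted p up to 0.0615, log2 fold change -1.62 to -1.41 in the fits without 1 library). The others did not all follow it. Tagln measured 80.5, 79.1 and 70.3 FPKM across the controls and 12.5, 87.3 and 57.1 FPKM across the knockouts, where replicate 2 exceeded every control, and Cnn1 and Smtn overlapped too. Lmod1 measured 3.28, 2.71 and 2.83 FPKM across the controls and 1.22, 5.44 and 6.02 FPKM across the knockouts (log2 fold change 0.24, limma adjusted p 0.817), and with replicates 2 and 3 alone it was called higher (0.83, limma adjusted p 0.00322, range over the alternatives 0.00322 to 0.996). It was also called without knockout replicate 1 (0.77, limma adjusted p 0.0490) and turned to -0.057 without knockout replicate 3. Actg2 lay lower without overlap (log2 fold change -0.97, limma adjusted p 0.0722) and was called with replicates 2 and 3 alone and with a block for replicate 1 (0.00998 and 0.0192, range 0.00998 to 0.235). Myh11 and Des, markers of differentiated smooth muscle, were under 0.5 FPKM in every library. Of 6 fibroblast and adventitial markers, Dcn was the most abundant, and their sum was 230, 820 and 689 FPKM across the controls and 77.7, 548 and 500 FPKM across the knockouts, lowest in the replicate 1 libraries. Its genes went different ways. Dpt was called lower (log2 fold change -5.28, limma adjusted p 0.00417). Dcn measured 13.9, 311 and 257 FPKM across the controls and 25.6, 383 and 350 FPKM across the knockouts, higher in each same-numbered pair but not called (log2 fold change 0.53, or -0.89 without control replicate 1, limma adjusted p 0.890). Lum measured 0, 1.31 and 1.17 FPKM across the controls and 0.26, 14.5 and 10.4 FPKM across the knockouts (log2 fold change 1.82, limma adjusted p 0.342). With replicates 2 and 3 alone Lum was called higher and Pdgfra, Dpt, Pi16 and Ly6a lower, and with a block for replicate 1 these calls stood and Dcn was called higher. Without knockout replicate 1, Lum was called higher, with a log2 fold change of 2.96, and Pdgfra lower, with -1.96. Ly6a was also called lower with the replicate number as a block (log2 fold change -1.09, limma adjusted p 0.0404, 0.552 without a block, range over the alternatives 0.000317 to 0.822), and its log2 fold change ran from -1.99 without control replicate 1 to -0.46 without knockout replicate 1. Endothelial markers, of which 7 were listed, summed to 1.42 to 5.41 FPKM with Cdh5, Tek, Vwf, Tie1 and Emcn under 0.5 FPKM in every library. The remaining 2 went opposite ways without overlap. Pecam1, under the filter and not tested, measured 0.56, 0.88 and 0.92 FPKM across the controls and 0.12, 0.18 and 0 FPKM across the knockouts. Kdr measured 0.47, 0.58 and 0.84 FPKM across the controls and 0.96, 5.15 and 2.96 FPKM across the knockouts (log2 fold change 1.16, limma adjusted p 0.186), and was called higher with a block for replicate 1, without knockout replicate 1 and with replicates 2 and 3 alone (0.0349, 0.0276 and 0.00263, range 0.00263 to 0.443). The 6 macrophage markers summed to 4.95 to 8.96 FPKM. Cd68 was the most abundant of them, and Ptprc, Adgre1 and Itgam were under 0.5 FPKM throughout. Of this list 0 were called, except with replicates 2 and 3 alone, where Csf1r was called higher and Lyz2 lower, and with a block for replicate 1, where Csf1r was called higher. Of 10 neuronal markers, 5 had a row, and their sum was 0.28 to 1.71 FPKM, beside 18.6 to 37.2 FPKM for Tubb3, which is often used as a neuronal marker. Marker calls stand beside those of all genes, of which 1.21% were called lower and 1.23% higher without a block. With replicates 2 and 3 alone 17.3% of all genes were called lower and 12.1% higher. With the block for replicate 1 these shares were 11.1% and 9.17%, and with the replicate block 5.72% and 4.72%. Without knockout replicate 1 they were 2.47% and 2.97%. The part of these markers in the tubulin values was not tested. In bulk RNA, fewer cells of a type and less RNA per cell cannot be told apart.

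BGI_novel_G000641 was listed at 0, 0 and 0.28 FPKM in control replicates 1, 2 and 3. It measured 27.2, 29.9 and 22.2 FPKM in the knockout replicates. The knockout values were alike and about the level of Tubb3, the least abundant of the annotated members, and the control values were at or near 0 in all 3 libraries. Within the summed alpha FPKM of the 3 annotated members and this row, it held 0%, 0% and 0.0283% across the controls and 2.75%, 3.08% and 2.5% across the knockouts. It is thus a minor part of the alpha tubulin RNA in either genotype. The table lists 1 transcript for it, and its position and sequence were not used here, so that reads it shares with other tubulin genes could not be counted.

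**Figure D1:**
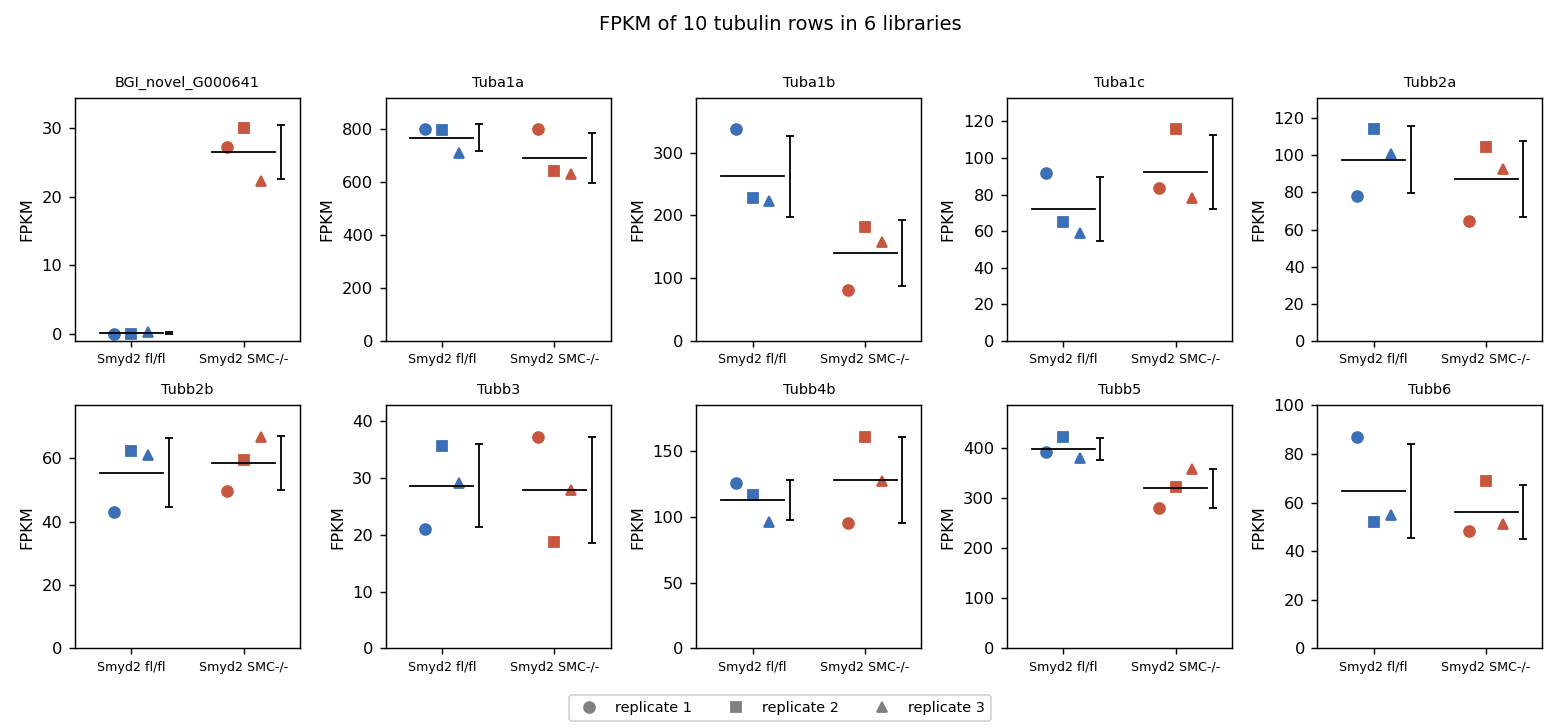
FPKM of the 10 tubulin rows in each library, with a panel for each row and the vertical axis in FPKM. Circles, squares and triangles mark replicates 1, 2 and 3, horizontal lines mark group means and bars mark 1 SD. BGI_novel_G000641 was chosen for its high Smyd2 SMC-/- values, and among the annotated rows the genotypes do not overlap for Tuba1b and Tubb5.

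Reads of near-identical genes can be split wrongly between them, and this bears on every alpha member. Of the 100-base windows of the reference transcript, the length of a read, 65.9% for Tuba1a, 73.0% for Tuba1b and 53.4% for Tuba1c also occurred in a GENCODE M21 transcript of another gene. Windows that occurred in another named tubulin gene made up 38.4%, 52.3% and 53.4%. The remainder for Tuba1a and Tuba1b included processed pseudogenes, of which 8 shared windows with each of these genes and none had a row by its name. Among the beta members, Tubb2a shared 36.9% of its windows and Tubb2b 27.8%, mostly with each other, and Tubb4b 30.6%, none of them with a named tubulin. Tubb3, Tubb5 and Tubb6 shared none with any gene of that annotation. How the shared reads were divided was not tested, so the values of the 3 alpha genes are uncertain relative to each other.

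**Figure D2:**
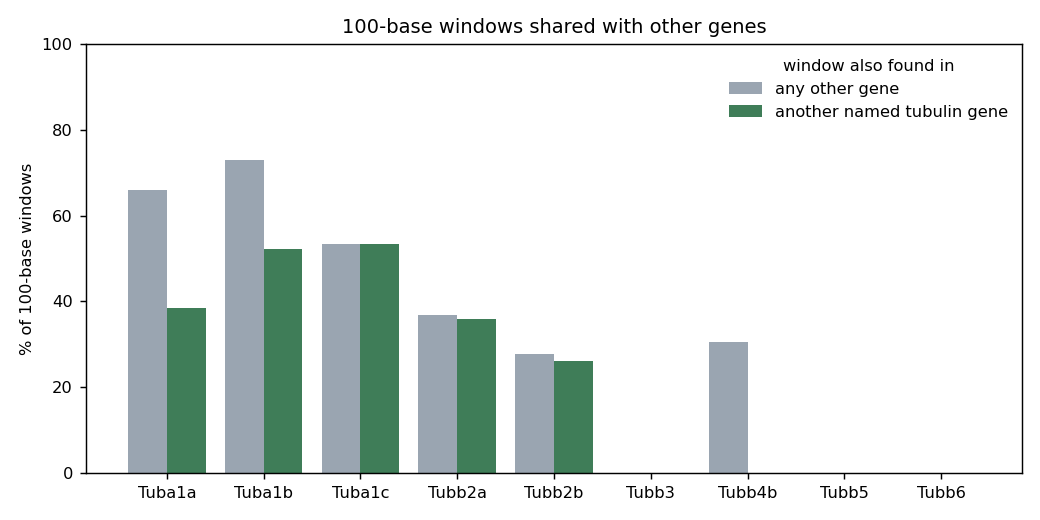
Share of the 100-base windows of each gene's reference transcript that also occur in another gene's GENCODE M21 transcripts, in percent of windows, for any other gene and for another named tubulin gene. Tuba1a, Tuba1b and Tuba1c share more than 50% of their windows, and Tubb3, Tubb5 and Tubb6 share none.

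The 3 alpha genes lie together, with Tuba1b at chr15:98931425-98934565 and Tuba1a at chr15:98949837-98953703 on the minus strand and Tuba1c at chr15:99029891-99038110 on the plus strand of GRCm38. Tuba1a, an isotype abundant in the developing nervous system, measured 798, 794 and 709 FPKM across the controls and 798, 643 and 629 FPKM across the knockouts. The genotypes overlapped. Its log2 fold change was -0.16 (95% interval -0.50 to 0.18, limma adjusted p 0.600). It was -0.27 without knockout replicate 1, -0.097 without knockout replicate 3 and -0.034 after rescaling to TPM.

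Tuba1b, a ubiquitous isotype, measured 337, 227 and 223 FPKM across the controls and 81.3, 182 and 158 FPKM across the knockouts. All knockout libraries lay below all control libraries, and replicate 1 held the highest value of the controls and the lowest of the knockouts. The log2 fold change was -0.95 (95% interval -1.74 to -0.16), with an unadjusted p of 0.0258 and a limma adjusted p of 0.182. Same-numbered libraries differed by -2.04 for replicate 1, -0.32 for replicate 2 and -0.49 for replicate 3 on the log2 scale, and without knockout replicate 1 the log2 fold change was -0.60. With replicates 2 and 3 alone the difference was smaller, at -0.41. It passed the threshold there (limma adjusted p 0.0383), as 17.3% of all genes did in the lower direction. Over all alternatives its adjusted p ran from 0.0383 to 0.348.

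Tuba1c, the third isotype of the cluster, measured 91.9, 65.2 and 58.9 FPKM across the controls and 83.5, 116 and 78.3 FPKM across the knockouts. The genotypes overlapped through the high control replicate 1. The log2 fold change was 0.36 (95% interval -0.18 to 0.90, limma adjusted p 0.434), or 0.19 without knockout replicate 2, 0.23 without control replicate 3 and 0.55 without control replicate 1. With replicates 2 and 3 alone it was 0.61, with a limma adjusted p of 0.0443, and the adjusted p ran from 0.0443 to 0.746 over the alternatives. In the fit of replicates 2 and 3 alone, 17.3% of all genes were called lower and 12.1% higher, beside 1 lower and 1 higher of the 9 members. So Tuba1b was lower and Tuba1c higher in replicates 2 and 3, and neither was called with replicate 1.

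Promoter sequences are shown for Tuba1b and Tuba1c, which differ in direction, for Tubb5, the other member whose genotypes did not overlap in FPKM, and for Tubg2, the gamma tubulin gene called lower. They come from the RefSeq table of GRCm38.p6, which held 14 genes of the family, and run 5′ to 3′ on the gene's strand. Of the 250 bases before each start, the parts outside every GENCODE M21 exon are printed. The windows were searched on both strands for the TATA box TATAAA, for the CCAAT box, whose letters are its name, for the GC box GGGCGG and for the CArG box, the binding site of serum response factor. Capitals mark matches of any of them. The printed stretches are Tuba1b chr15:98934566-98934640 on the minus strand, Tuba1c chr15:99029641-99029890 on the plus strand, Tubb5 chr17:35838307-35838551 on the minus strand and Tubg2 chr11:101155634-101155883 on the plus strand.
Tuba1b: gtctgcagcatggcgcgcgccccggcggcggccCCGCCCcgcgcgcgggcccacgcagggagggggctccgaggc
Tuba1c: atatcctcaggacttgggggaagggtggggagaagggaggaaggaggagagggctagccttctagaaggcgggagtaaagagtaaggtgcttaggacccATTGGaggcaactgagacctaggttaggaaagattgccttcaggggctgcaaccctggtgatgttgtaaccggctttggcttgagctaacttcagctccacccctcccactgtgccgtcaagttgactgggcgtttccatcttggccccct
Tubb5: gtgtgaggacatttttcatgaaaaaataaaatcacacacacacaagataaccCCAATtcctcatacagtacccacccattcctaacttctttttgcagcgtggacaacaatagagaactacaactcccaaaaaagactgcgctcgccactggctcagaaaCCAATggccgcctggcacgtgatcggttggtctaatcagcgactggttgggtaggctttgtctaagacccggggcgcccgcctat
Tubg2: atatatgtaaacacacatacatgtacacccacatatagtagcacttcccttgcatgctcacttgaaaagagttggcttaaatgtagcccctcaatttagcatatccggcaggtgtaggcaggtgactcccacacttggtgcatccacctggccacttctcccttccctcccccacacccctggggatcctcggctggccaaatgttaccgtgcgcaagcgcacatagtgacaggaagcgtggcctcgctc
In the full windows, Tuba1b held 2 GGGCGG matches and Tuba1c 1 CCAAT match, Tubb5 2 CCAAT matches and Tubg2 none, and GC content was 75.6% for Tuba1b and 55.6% for Tuba1c. CCAAT occurred in 33.9% of 32851 promoter windows of the same length and GGGCGG in 32.7%. The CArG box occurred in 1.47% of all windows and in none of the 14 of the tubulin family, which says only that these letters are not in these windows.

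Tubb5, the most abundant beta isotype, is expressed widely. It measured 394, 423 and 380 FPKM across the controls and 281, 322 and 358 FPKM across the knockouts, and the genotypes did not overlap in FPKM. Its log2 fold change was -0.32 (95% interval -0.65 to 0.0042), with a limma adjusted p of 0.250. After rescaling to TPM the log2 fold change was -0.20 and the genotypes overlapped, since knockout replicate 3, at 922, exceeded control replicate 3, at 901. Tubb4b, the other main beta isotype, measured 126, 117 and 96.2 FPKM across the controls and 95.4, 161 and 127 FPKM across the knockouts. These overlapped, and the log2 fold change of 0.15 (limma adjusted p 0.758) turned to -0.028 without knockout replicate 2 and was 0.43 with replicates 2 and 3 alone. Tubb2a and Tubb2b, a pair of neighbouring genes on chr13 that are strongly expressed in brain, had means of 97.6 ± 18.1 and 55.4 ± 10.9 FPKM (SD, n = 3) across the controls and 87.2 ± 20.5 and 58.6 ± 8.57 FPKM (SD, n = 3) across the knockouts. Their log2 fold changes were -0.17 (95% interval -0.72 to 0.37) and 0.088 (95% interval -0.37 to 0.55), with limma adjusted p of 0.733 and 0.853. Tubb2a turned to 0.027 without knockout replicate 1 and Tubb2b to -0.083 without control replicate 1. Same-numbered libraries differed on the log2 scale by -0.27, -0.12 and -0.12 for Tubb2a and by 0.21, -0.070 and 0.13 for Tubb2b. Tubb2a was thus lower in each same-numbered pair but was not called with the replicate block (limma adjusted p 0.273). After rescaling to TPM the log2 fold changes were -0.050 for Tubb2a, 0.21 for Tubb2b and 0.28 for Tubb4b.

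Tubb3 had its highest and its lowest value in the knockouts, with 37.2, 18.6 and 27.8 FPKM against 21.0, 35.6 and 29.2 FPKM across the controls. Replicate 1 was higher in the knockout by 0.79 on the log2 scale and replicate 2 lower by a difference of -0.90, so that the log2 fold change of -0.056 (95% interval -0.75 to 0.64, limma adjusted p 0.944) averaged opposite differences, and it was 0.065 after rescaling to TPM and -0.48 with replicates 2 and 3 alone. Tubb6, a broadly expressed and more divergent isotype, measured 87.0, 52.1 and 55.0 FPKM across the controls and 48.4, 68.7 and 51.1 FPKM across the knockouts. Its log2 fold change of -0.18 (limma adjusted p 0.736) came from replicate 1 and was -0.059 after rescaling to TPM and 0.14 with replicates 2 and 3 alone.

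Limma called 0 of the 9 annotated members, lower or higher, where 1.21% of the 12565 genes were called lower and 1.23% higher. After rescaling to TPM limma also called 0 of the 9, where 0.737% of all genes were called lower and 1.81% higher. In the fits without 1 library 0 of the 9 were called. There the share of all genes called lower ran from 0.127% to 2.47% and that called higher from 0.127% to 2.97%. Before adjustment 1 of the 9, Tuba1b, had a limma p under 0.05, where 20.3% of all genes reached it, and 2 of the 9 with the replicate block, where 32.1% did. With the replicate number as a block it again called 0, where 5.72% of all genes were called lower and 4.72% higher. The genotypes did not overlap for 2 of the 9, Tuba1b and Tubb5, both lower, where 15.0% of all genes were lower without overlap and 13.1% higher. After rescaling to TPM this held for 1 of the 9, Tuba1b, where 9.62% of all genes were lower without overlap and 18.6% higher. The median log2 fold change of the 9 was -0.16, where that of all genes was -0.018. After rescaling to TPM the median of all genes moved by 0.11, to 0.095, and the members' median lay at -0.13 relative to it, where it had been -0.14. That distance was not stable: it was -0.0079 without knockout replicate 1, -0.035 without control replicate 2 and -0.064 with replicates 2 and 3 alone.

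**Figure D3:**
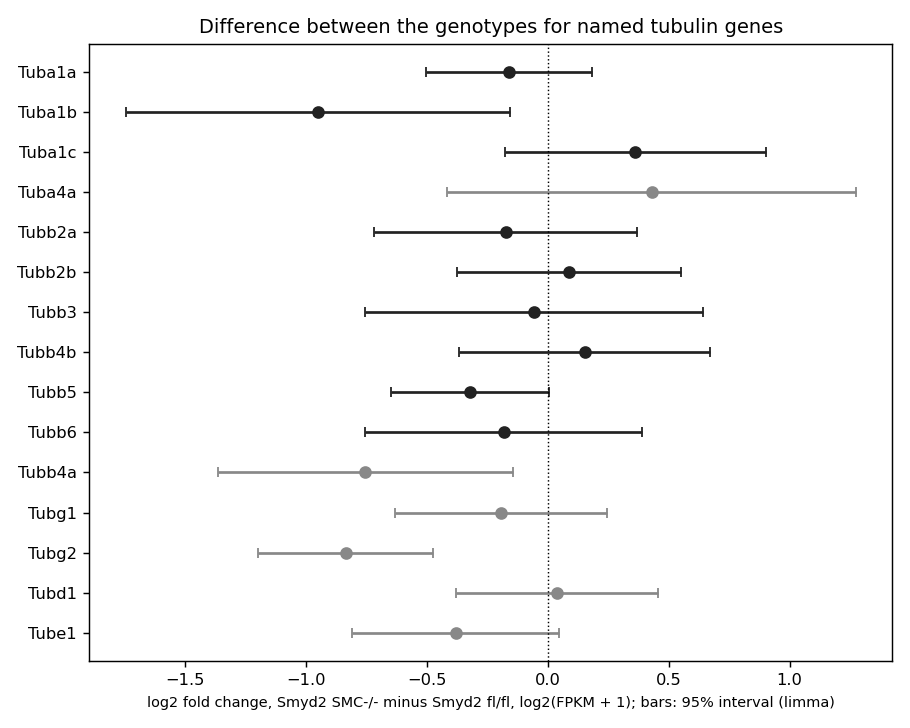
Log2 fold change of FPKM + 1, Smyd2 SMC-/- minus Smyd2 fl/fl, for the 9 annotated members in black and the other tested named tubulin genes in grey, with 95% intervals from limma over 3 libraries per genotype. The intervals of Tuba1b, Tubb4a and Tubg2 do not include 0, and Tubg2 alone of the genes shown has an adjusted p under 0.05. The sign for Tubb3 turns after rescaling to TPM.

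The members kept nearly the same order of level in both genotypes. Across the controls, Tuba1a at 767 ± 50.4 FPKM (SD, n = 3) was followed by Tubb5 at 399 ± 21.9 and Tuba1b at 263 ± 64.7, and these did not overlap with their neighbours in the order. Tubb4b, Tubb2a, Tuba1c, Tubb6 and Tubb2b then followed with overlapping ranges, and Tubb3 at 28.6 ± 7.28 FPKM (SD, n = 3) was lower than all of them. Across the knockouts, Tuba1a at 690 ± 93.9 FPKM and Tubb5 at 320 ± 38.7 FPKM (SD, n = 3) again stood alone. There Tuba1b at 141 ± 52.6 FPKM (SD, n = 3) overlapped with Tubb4b at 128 ± 32.7, and Tubb3 at 27.9 ± 9.27 overlapped with BGI_novel_G000641 at 26.5 ± 3.90.

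Isotype shares were computed in each library as the percent of the summed FPKM of the 3 annotated alpha or 6 beta members. Tuba1a held 65.0%, 73.1% and 71.6% of alpha tubulin across the controls and 82.9%, 68.4% and 72.7% across the knockouts. Tuba1b held 27.5%, 20.9% and 22.5% across the controls and 8.44%, 19.4% and 18.3% across the knockouts. Tuba1c held 7.49%, 6.00% and 5.94% across the controls and 8.67%, 12.3% and 9.04% across the knockouts. Thus Tuba1b took a smaller and Tuba1c a larger share in every knockout library than in any control library, and Tuba1a overlapped. The means differed by -8.27 points for Tuba1b and 3.53 points for Tuba1c, each with an exact two-sided permutation p of 0.1, the smallest that 3 against 3 libraries allow. Adjusted over the 9 isotypes by Benjamini and Hochberg, each of these permutation p-values was 0.3. In FPKM, 15.0% of all genes were lower without overlap and 13.1% higher. How reads shared by the alpha genes were divided was not tested. Tuba1b's difference was largest in replicate 1, at -19.0 points, where replicates 2 and 3 gave -1.57 and -4.21 points. Without the knockout replicate 1 library it was -4.81 points. Replicate 1 gave the smallest difference for Tuba1c, at 1.18 points, against 6.30 and 3.10.

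Among the beta isotypes, Tubb5 held 52.6% in each control library, with an SD of 0.0201 points, and 48.8%, 43.9% and 49.5% across the knockouts. Its share was lower in all 3 knockout libraries, with a difference of -5.23 points (exact permutation p 0.1), or -3.47 without knockout replicate 2. Tubb4b held 14.9% ± 1.78 across the controls and 18.7% ± 2.84 across the knockouts (SD, n = 3 each, exact permutation p 0.2), a difference of 3.78 points, or 2.17 without knockout replicate 2. Its genotypes overlapped, and same-numbered libraries differed by -0.26, 7.35 and 4.26 points. The shares of Tubb2a, Tubb2b, Tubb3 and Tubb6 overlapped as well, with differences of -0.12, 1.33, 0.52 and -0.29 points. Without control replicate 1 the difference for Tubb2b was 0.54 points. Adjusted over the 9 isotypes, the permutation p was 0.3 for Tubb5 and 0.36 for Tubb4b.

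**Figure D4:**
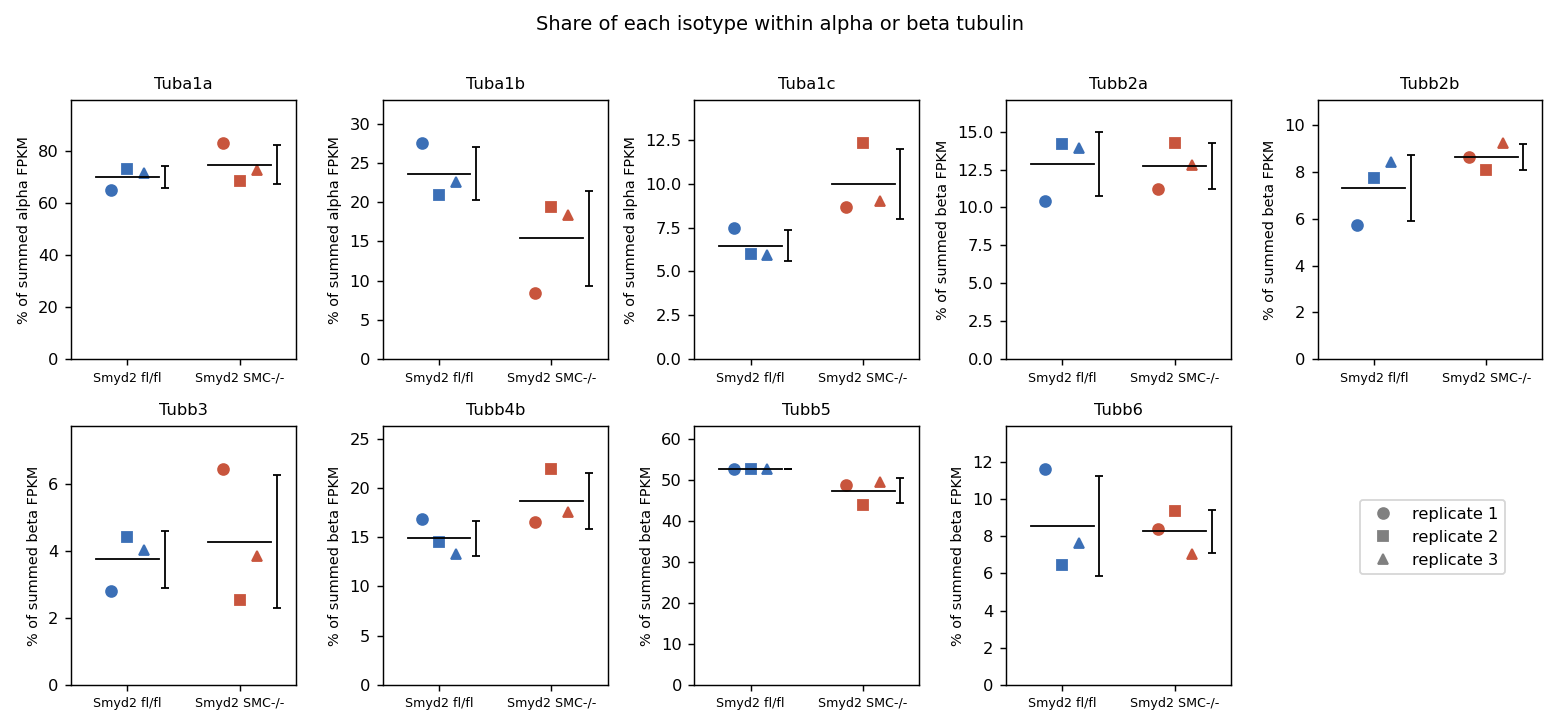
Share of each annotated isotype in the summed FPKM of its class, in percent, with a panel for each isotype and the 6 libraries as points by genotype. Circles, squares and triangles mark replicates 1, 2 and 3, lines mark means and bars mark 1 SD. Tuba1b and Tubb5 are lower and Tuba1c is higher in every knockout library than in any control library.

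The summed alpha FPKM was 1227, 1087 and 991 across the controls and 963, 940 and 866 across the knockouts. Every knockout library lay below every control library, and the log2 difference was -0.25 (exact permutation p 0.1). After rescaling to TPM it was -0.13 (exact permutation p 0.5) and the genotypes overlapped. Adding BGI_novel_G000641 to the sum gave 990, 970 and 888 FPKM across the knockouts, still below the lowest control library at 991. The summed beta FPKM was 749, 804 and 722 across the controls and 576, 734 and 724 across the knockouts, which overlapped (log2 difference -0.17, exact permutation p 0.3). Without knockout replicate 1, which held the low value, the difference was -0.056, and after rescaling to TPM it was -0.044. The ratio of alpha to beta was 1.64, 1.35 and 1.37 across the controls and 1.67, 1.28 and 1.2 across the knockouts, again with replicate 1 apart and the genotypes overlapping. The 9 members together made up 0.477%, 0.419% and 0.406% of all FPKM across the controls and 0.393%, 0.418% and 0.409% across the knockouts.

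The table held 13 further tubulin rows: 6 alpha, 3 beta, 2 gamma, 1 delta and 1 epsilon, with 11 of them tested. Tuba4a, an alpha isotype outside the cluster, measured 31.6, 13.9 and 14.9 FPKM across the controls and 35.4, 23.7 and 19.9 FPKM across the knockouts (log2 fold change 0.43, limma adjusted p 0.564), and the log2 fold change ran from 0.20 without knockout replicate 1 to 0.79 without control replicate 1. Replicate 1 was highest in both genotypes, and with replicates 2 and 3 alone the log2 fold change was 0.56 (limma adjusted p 0.0107, range over the alternatives 0.0107 to 0.835). In that fit 12.1% of all genes were called higher. Tuba8 and Tubb1 were mostly near 0, at no more than 1.42 and 0.03 FPKM.

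BGI_novel_G000573, another alpha row without a symbol, measured 0.09, 0 and 0 FPKM across the controls and 0.89, 1.51 and 0.94 FPKM across the knockouts. Its mean of 0.57 FPKM passed the filter only through the knockouts, so these values are given as a description and no call is drawn from them. The remaining alpha rows without a symbol, BGI_novel_G000419, BGI_novel_G000434 and BGI_novel_G000882, and the beta row BGI_novel_G001160 overlapped between genotypes, with log2 fold changes of 0.17, 0.0065, 0.36 and -0.19. Without 1 library these ran from 0.019 to 0.34, -0.12 to 0.24, 0.27 to 0.62 and -0.34 to -0.0023, so the sign turned for BGI_novel_G000434. BGI_novel_G000882 too passed the filter only through the knockouts, so no call is drawn from it. Tubb4a, a neuronal beta isotype, measured 3.15, 3.15 and 2.76 FPKM across the controls and 0.70, 1.48 and 2.20 FPKM across the knockouts. It lay lower without overlap but was not called (limma adjusted p 0.171), except with a block for replicate 1 (0.0483, range over the alternatives 0.0483 to 0.372). With that block 11.1% of all genes were called lower.

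Gamma tubulin sits at the base of microtubules and starts their growth. Tubg2, the less abundant of its genes, measured 5.91, 5.02 and 4.85 FPKM across the controls and 2.52, 2.32 and 2.67 FPKM across the knockouts. It was called lower, with a log2 fold change of -0.83 (SE 0.15), a limma adjusted p of 0.0471 and no overlap between the genotypes. The adjusted p was 0.0708 after rescaling to TPM and 0.0568 without the filter, and was above 0.05 in 5 of the 6 fits without 1 library, all but that without knockout replicate 1, with a range over the alternatives of 0.00548 to 0.193. The log2 fold change stayed between -0.88 and -0.76 in the fits without 1 library. Tubg1, the main gamma tubulin gene, measured 41.3, 31.7 and 32.4 FPKM across the controls and 34.4, 33.3 and 24.4 FPKM across the knockouts, which overlapped (limma adjusted p 0.622). Tube1, of epsilon tubulin, lay lower without overlap at 1.68, 1.21 and 1.05 against 0.82, 0.81 and 0.67 FPKM but was not called (limma adjusted p 0.293). Tubd1, of delta tubulin, overlapped.

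Genes of 7 microtubule lists were read from the same fit, and of the 86 tested genes limma called 2 lower and 0 higher, with 6 lower and 1 higher when the replicate number was a block. Of all genes, 1.21% were called lower and 1.23% higher, and with the block 5.72% and 4.72%. The 9 genes of the gamma tubulin ring complex included 0 called, and Tubgcp4, its most abundant gene, measured 23.1, 23.03 and 22.7 FPKM across the controls and 26.2, 22.4 and 23.8 FPKM across the knockouts. The median log2 fold change of this list was -0.017, beside -0.018 for all genes, and ran from -0.11 without control replicate 2 to 0.026 without control replicate 1.

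The tubulin folding list holds the CCT chaperonin, prefoldin and the tubulin cofactors, which fold new alpha and beta tubulin and join them into the dimer. Its 22 genes had a median log2 fold change of -0.30. The genotypes did not overlap for 10 of the 22 in the lower direction, where 15.0% of all genes behaved so, and for 1 in the higher. After rescaling to TPM the median was -0.18, beside 0.095 for all genes, and 6 of the 22 were lower without overlap, where 9.62% of all genes were. Limma called 0 of them without a block and 3 lower with the replicate block, where 5.72% of all genes were called lower: Cct2, Cct8 and Tcp1, all subunits of the chaperonin. Cct2, the most abundant gene of the list, measured 277, 233 and 205 FPKM across the controls and 178, 142 and 140 FPKM across the knockouts. Its limma adjusted p was 0.105, and 0.0292 with the block (range over the alternatives 0.00677 to 0.343). Cct8 measured 111, 94.5 and 84.1 FPKM across the controls and 65.9, 62.7 and 58.2 FPKM across the knockouts (limma adjusted p 0.0766, 0.0314 with the block, range 0.00921 to 0.284). Tcp1 measured 159, 148 and 127 FPKM across the controls and 105, 95.3 and 93.3 FPKM across the knockouts (limma adjusted p 0.0829, 0.0371 with the block, range 0.0130 to 0.304). In all 3 the knockout libraries lay below the controls, and replicate 1 was highest in each genotype.

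The 3 genes that degrade tubulin mRNA when free dimer is abundant, Ttc5, Scaper and Cnot11, overlapped between genotypes and 0 were called. Of the 16 tested genes that modify tubulin after translation 0 were called, and Sirt2, a deacetylase and the most abundant of them, measured 70.9, 77.2 and 81.0 FPKM across the controls and 76.8, 75.8 and 83.6 FPKM across the knockouts. Among 21 tested microtubule associated proteins, Map2 was called lower. It measured 15.1, 6.95 and 8.55 FPKM across the controls and 0.65, 2.81 and 1.19 FPKM across the knockouts, a log2 fold change of -2.16 (SE 0.39, limma adjusted p 0.0460). The call was lost in all 6 fits without 1 library, with adjusted p of 0.0538 to 0.193, after rescaling to TPM (0.0546), with a pseudocount of 0.1 and without the filter, while the log2 fold change stayed between -2.49 and -1.86 without 1 library. Map2 binds along microtubules, mostly in dendrites. Map1a measured 2.82, 5.09 and 6.39 FPKM across the controls and 9.36, 13.0 and 11.8 FPKM across the knockouts, higher without overlap, with a limma adjusted p of 0.0804 and of 0.0258 with the block (range 0.00166 to 0.276). Map1b overlapped narrowly, at 87.3, 27.0 and 36.2 against 27.1, 17.7 and 18.4 FPKM, with a limma adjusted p of 0.233 and of 0.0472 with the block (range 0.00720 to 0.504). Map4, the most abundant of the list, overlapped, as did Stmn1, the most abundant of the 9 tested genes that destabilise or sever microtubules, of which 0 were called. With replicates 2 and 3 alone Stmn1 was called lower (-0.36, limma adjusted p 0.0475, range over the alternatives 0.0475 to 0.995). In that fit 17.3% of all genes were called lower.

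Likeness of profile was taken, as a description, from the Pearson correlation over the 6 libraries of log2(FPKM + 1), among the 11705 genes that averaged 1 FPKM or more, which share the libraries and their depth. Closest to BGI_novel_G000641 were Flvcr2, Galnt11, Pcdhgb4, Fabp3 and Smim20, with r of 0.9996, 0.997, 0.996, 0.995 and 0.995, and 18 genes reached 0.99. Such values describe genes that split the genotypes evenly, which was how BGI_novel_G000641 was chosen. Closest to the summed 9 annotated members were Mrpl49, Fbxo6, Lsm3, BGI_novel_G000174 and Riok2, with r of 0.995, 0.994, 0.991, 0.99 and 0.989. The annotated members differed among themselves: Tuba1b and Tubb5 followed each other with r of 0.86, while Tubb3 and Tubb6 ran in opposite directions, with r of -0.84. Tuba1a and Tuba1b, which share many windows, had r of 0.066.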

How the data were processed

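The authors deposited FPKM for each library. Their sources name SOAPnuke for filtering, HISAT and Bowtie2 for alignment, RSEM for quantification and the BGISEQ-500 platform. Tool versions and the genome build are not given in the sources used here, nor is the strand setting. For the tests, 1 was added to each FPKM before log2, and limma 3.58.1 (R 4.3.3) was run with robust, trended eBayes. The fit was also run on simulated data. These held no replicate effect, so that run says nothing about how the fit handles replicate 1. Shares and sums were tested with two-sided exact permutation tests in scipy 1.17.1. No per-sample column was left unmapped. Deviations from the group mean correlated between libraries of the same number, with r of 0.61, 0.46 and 0.53 for replicates 1, 2 and 3, so the numbers in the labels were taken to pair the samples. Replicates 2 and 3 also correlated across groups by 0.46 and 0.44. Control replicate 2 was as close to knockout replicate 3 (0.461) as to knockout replicate 2 (0.460). The correlations thus set replicate 1 apart but do not tell replicate 2 from replicate 3. Alternatives were a pseudocount of 0.1, no filter, TPM rescaling, a block for the replicate number or for replicate 1, replicates 2 and 3 alone, other totals for the shares, and leaving out each library. The settings of the depth estimate were varied after seeing the data. Gene positions and transcripts come from GENCODE M21 (GRCm38), matched by the listed RefSeq transcripts. Genes named are the members, the other tubulin rows, Smyd2, the listed markers, and from each list the most abundant gene and those called with or without the block, and the 5 genes closest in profile to BGI_novel_G000641 and to the summed members. The values of 1 marker list are not reported here. The members and lists were chosen with earlier results of these data known. Other programs were Python 3.11.15 with numpy 2.4.6, pandas 2.3.3 and matplotlib 3.10.9.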

Additional observations from a re-analysis of the deposited data

How the results depend on the processing

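Smyd2 stayed lower in every alternative, at -1.48 with the replicate block, -1.48 with a block for replicate 1 and -1.35 with replicates 2 and 3 alone, past the threshold in these 3 and not in the others, and between -1.73 and -1.10 without 1 library. Members called were 0 in each direction in every alternative except replicates 2 and 3 alone, with 1 lower and 1 higher. List genes called lower were 2, and 1 with a pseudocount of 0.1, 0 without the filter, 0 after TPM rescaling, 6 with the replicate block, 14 with the block for replicate 1, 22 with replicates 2 and 3 alone and 0 to 4 without 1 library; called higher were 0, and 1 with the replicate block, 3 with the block for replicate 1 and 5 with replicates 2 and 3 alone. The share of all genes called lower moved likewise, from 1.21% to 5.72% with the replicate block, 11.1% with the block for replicate 1 and 17.3% with replicates 2 and 3 alone, and that called higher from 1.23% to 4.72%, 9.17% and 12.1%. After TPM rescaling these shares were 0.737% lower and 1.81% higher, and without the filter 0.596% and 0.767%. They fell to 0.127% and 0.143% without control replicate 2 and rose to 2.47% and 2.97% without knockout replicate 1. Beside Smyd2, Ly6a, Cct2, Cct8, Tcp1, Map1a and Map1b, the replicate block changed no call of a tubulin, microtubule list or printed marker gene. Signs turned for Tubb3 after TPM rescaling (0.065) and for Tubb6 with replicates 2 and 3 alone (0.14). Without 1 library, log2 fold changes ran from -0.32 to 0.027 for Tubb2a, -0.083 to 0.20 for Tubb2b, -0.28 to 0.20 for Tubb3, -0.028 to 0.35 for Tubb4b and -0.33 to 0.049 for Tubb6, and shares from -1.33 to 0.65 points for Tubb2a, -0.56 to 1.39 for Tubb3 and -1.34 to 1.23 for Tubb6. Shares that kept their sign ran from 0.62 to 7.89 points for Tuba1a, 0.54 to 1.90 for Tubb2b and 2.17 to 4.84 for Tubb4b. Tuba1a, Tuba1b, Tuba1c, Tubb5 and both sums kept their direction in each alternative run. Other values kept their direction and side of the threshold: 143 for tubulin genes, 69 for shares, 17 for sums and 9 for Smyd2. For tubulin genes, 4 values came to pass the threshold, 10 no longer passed it and 9 turned in sign. These counts for tubulin genes include fits of BGI_novel_G000573, which passed the filter only through the knockouts. They are no measure of stability for that row. Of the depth estimates, 27 moved and 8 did not. The cause of these changes was not tested. An exact test of 3 against 3 cannot pass 0.05, so the p-values of shares and sums say nothing about their stability. The depth limits genes near 0, such as Tubb1 and BGI_novel_G000573.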
